A study of Mus musculus with 10 samples.

Results

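The genes described here are 9 protein-coding genes of embryonic mouse cortex: S100a6, Lgals1, Myl6, Crip1, Pcp4, Coa3, Tufm, Hscb and Mpc1. They are 9 of 22180 genes tested, and were picked because their signal was lower in a precipitate than in input. Their low precipitate values are therefore given as a description without a p-value. What the choice left unstated is whether both precipitates had lost them, by how much, and whether the precipitates differed.

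RNA came from cortices of CD1 mouse embryos at E12-13 and was hybridised to Affymetrix Mouse Gene 2.0 ST arrays. The groups were 3 arrays of RNA pulled down by immunoprecipitation of 4E-T (4ET-IP 1, 2 and 3), 3 of RNA pulled down with control IgG (IgG-IP 2, 3 and 4) and 4 of total input RNA (input 1 to 4). All animals were of the same strain, and the labels give no mutation or treatment for any group. The labels do not say whether replicates came from separate litters, so p-values measure the spread between these samples. 4E-T, encoded by Eif4enif1, is a partner of the cap-binding factor eIF4E that holds messages back from translation and is found in P-bodies. The IgG precipitate measures the RNA carried along by an antibody that is not directed at 4E-T.

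The genes share no single pathway. S100a6 encodes a small calcium-binding protein, Lgals1 the sugar-binding protein galectin-1, Myl6 an essential light chain of non-muscle myosin, Crip1 a small LIM domain protein and Pcp4 a small calmodulin-binding protein of neurons. The others act in mitochondria. Coa3 takes part in the assembly of cytochrome c oxidase, Tufm is the elongation factor Tu of mitochondrial translation, Hscb is a co-chaperone in iron-sulfur cluster assembly, and Mpc1 is a subunit of the carrier that brings pyruvate into the matrix.

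All values are RMA log2 values, on which a difference of 1 is a doubling. Values are relative within an array, and the amounts of RNA pulled down were not analysed here. The arrays did not share a common distribution. Taken over the whole table, the array median was 3.52 for 4ET-IP 1 and 3.54 for input 1, and lay between 4.33 and 4.54 on the other 8 arrays. Differences, their standard errors (SE) and calls come from a single limma fit of the 10 arrays with a term for that lower-scale pair. A call means a Benjamini-Hochberg adjusted p under 0.05 over all genes. Markers of the tissue were bright in every group. Outside the pair, the mean of 10 cortical precursor and neuron markers was 8.84 and 8.89 on the 4ET-IP arrays, 8.503 to 8.53 on the IgG-IP arrays and 8.47 to 8.51 on the inputs. Against input, 5 of the 10 were called higher and 0 lower in 4ET-IP (10.4% and 8.86% of all genes were). In IgG-IP 2 were called higher and 2 lower (6.14% and 10.5%).

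Read from the brightest probe set of each gene, both precipitates had lost all 9 genes. In this reading all 6 precipitate arrays lay below all 4 inputs for each gene, as for 5.32% of all genes. That share was 8.44% for the 4ET-IP arrays alone and 8.23% for the IgG-IP arrays alone. The dimmer probe sets of Tufm and Mpc1 overlapped input, as described below, so the loss of these genes is uncertain. The median difference of the 9 genes was -1.62 in 4ET-IP over input and -2.32 in IgG-IP over input, or 32.5% and 19.97% of the input level. The medians over all genes were 0.037 and 0.026. All 9 were called lower in 4ET-IP (8.86% of all genes were), all 9 in IgG-IP (10.5%) and so all 9 in both (5.75%). Nothing is read from these counts, because the genes were chosen on these differences.

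**Figure D1:**
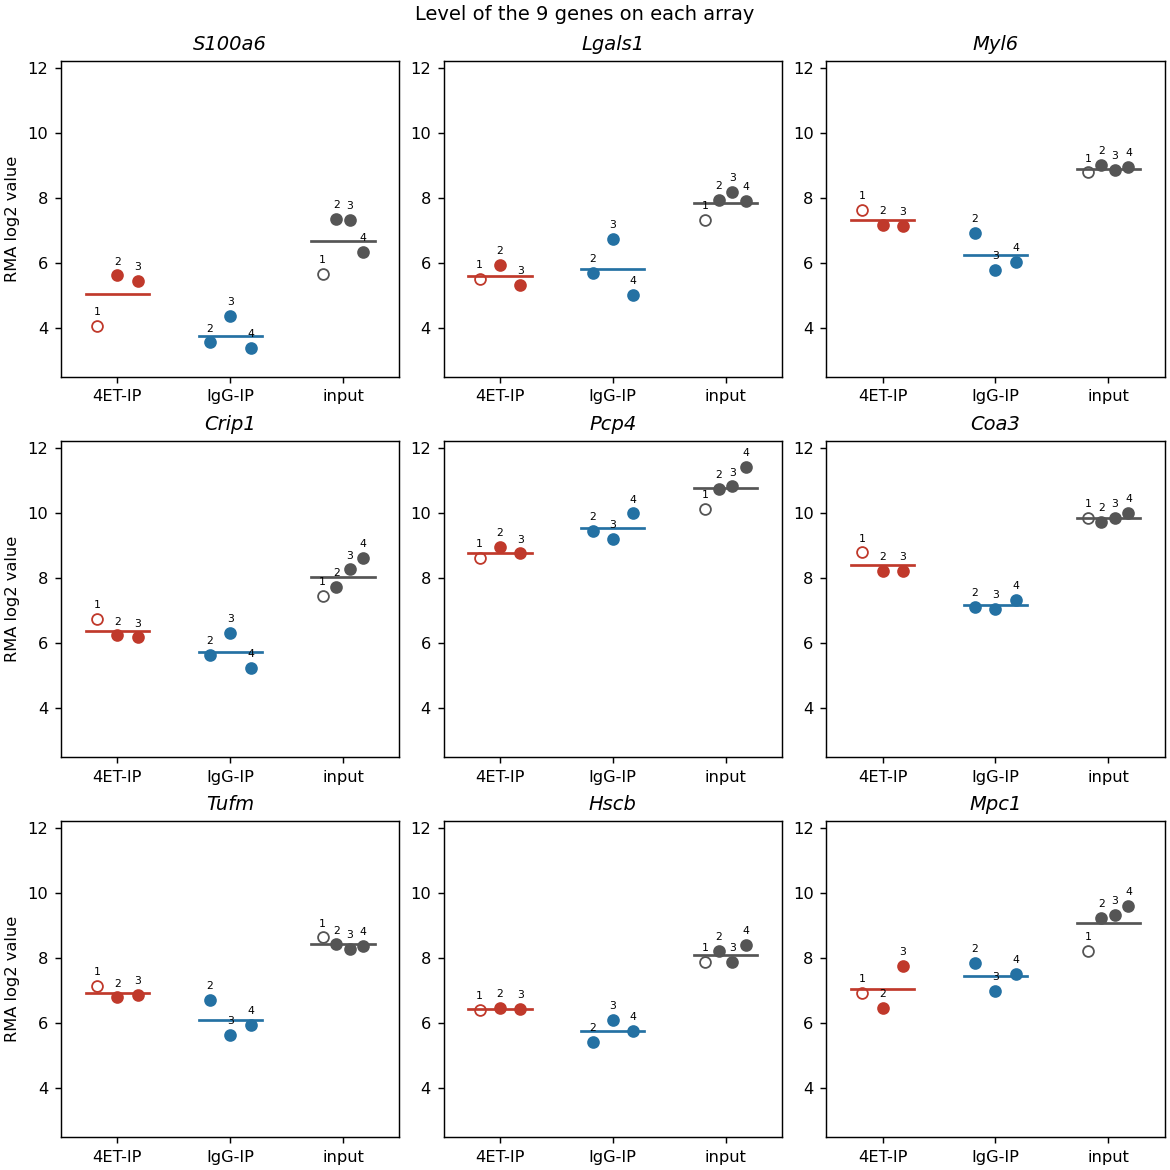
RMA log2 value of each gene from its brightest probe set (y axis) on the 3 4ET-IP, 3 IgG-IP and 4 input arrays. Replicate numbers stand above the points, and the group mean is a line. Open points are 4ET-IP 1 and input 1, which carry lower values over the whole array; in every panel the precipitate points lie below the input points.

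Of the 9 genes, S100a6 had the lowest fitted difference from input in IgG-IP and the highest one of 4ET-IP over IgG-IP. Its values were 4.07, 5.62 and 5.43 on 4ET-IP 1, 2 and 3, against 3.56, 4.37 and 3.38 on IgG-IP 2, 3 and 4 and 5.65, 7.36, 7.33 and 6.33 on inputs 1 to 4. 4ET-IP 2 came within 0.1 of input 1, the lowest input, which is on the lower scale, so the gap between groups is narrow. Against input, S100a6 differed by -1.51 ± 0.28 (SE) in 4ET-IP and by -3.25 ± 0.28 in IgG-IP, where its signal stood at 10.5% of the input signal. Its IgG-IP values lay below the medians of those arrays, 4.45 to 4.54, and whether the probe set was above background there is unknown, so the sizes of its IgG-IP differences are uncertain. In the fit without the term for the pair the 4ET-IP difference of S100a6 was -1.62 ± 0.46 and not called, so that 8 of the 9 genes were called there.

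Coa3 was among the most even of the genes. It had 8.78, 8.22 and 8.22 on the 4ET-IP arrays, against 7.10, 7.04 and 7.32 on the IgG-IP arrays and 9.83, 9.72, 9.84 and 9.999 on the inputs. The groups formed separate levels, with 4ET-IP between IgG-IP and input. The differences from input were -1.46 ± 0.15 in 4ET-IP and -2.63 ± 0.16 in IgG-IP.

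Myl6 showed the same order with more spread among the IgG arrays. Its values were 7.63, 7.17 and 7.14 in 4ET-IP, against 6.92, 5.79 and 6.03 in IgG-IP and 8.78, 9.01, 8.86 and 8.94 in input. IgG-IP 2 lay nearest to the 4ET-IP arrays. Myl6 differed from input by -1.60 ± 0.24 in 4ET-IP and by -2.62 ± 0.24 in IgG-IP.

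Hscb was nearly constant on the 4ET-IP arrays, at 6.39, 6.46 and 6.42. It had 5.42, 6.10 and 5.75 on the IgG-IP arrays and 7.88, 8.22, 7.87 and 8.40 on the inputs. No values overlapped between the groups. The differences from input were -1.65 ± 0.18 in 4ET-IP and -2.38 ± 0.19 in IgG-IP.

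Crip1 had 6.73, 6.23 and 6.17 in 4ET-IP, against 5.63, 6.32 and 5.22 in IgG-IP and 7.46, 7.72, 8.26 and 8.61 in input. IgG-IP 3 lay within the range of the 4ET-IP arrays, so the precipitates overlapped. Crip1 differed from input by -1.62 ± 0.30 in 4ET-IP and by -2.32 ± 0.31 in IgG-IP.

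Lgals1 and Pcp4 were not higher in 4ET-IP than in IgG-IP. Lgals1 had 5.50, 5.94 and 5.32 in 4ET-IP, against 5.69, 6.75 and 5.01 in IgG-IP and 7.32, 7.94, 8.17 and 7.89 in input. The IgG-IP values spanned those of 4ET-IP, and the differences from input were -2.21 ± 0.33 in 4ET-IP and -2.12 ± 0.34 in IgG-IP. Pcp4 had 8.61, 8.94 and 8.75 in 4ET-IP, against 9.44, 9.20 and 9.98 in IgG-IP and 10.11, 10.74, 10.81 and 11.42 in input. Every 4ET-IP array was below every IgG-IP array for Pcp4, but 4ET-IP 1, the lowest, is on the lower scale. The share of all genes with this order was not counted, so nothing is read from it. The differences of Pcp4 from input were -1.96 ± 0.23 in 4ET-IP and -1.37 ± 0.23 in IgG-IP.

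**Figure D2:**
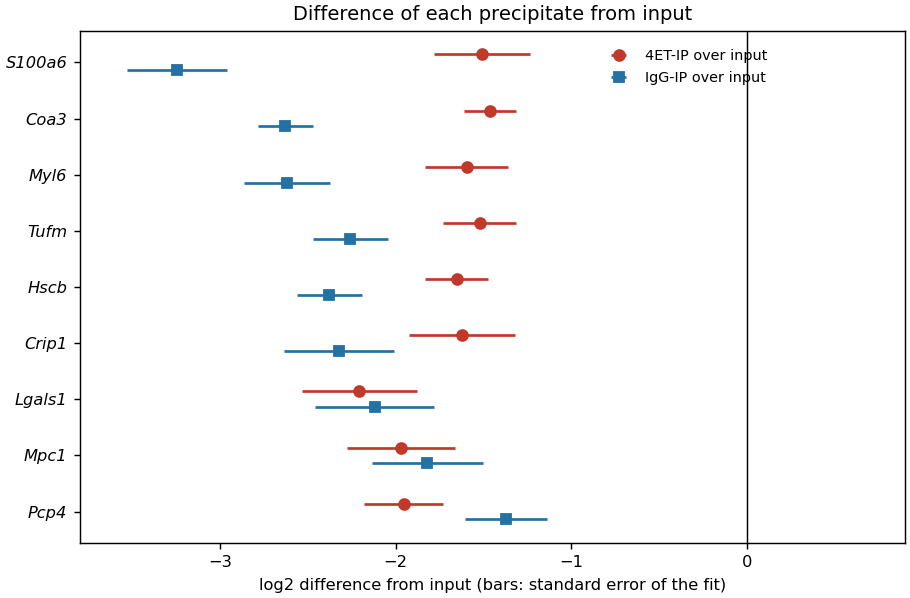
Log2 difference from input (x axis) of each gene in 4ET-IP (circles) and IgG-IP (squares), with the SE of the fit as bars. Genes run from the largest to the smallest difference of 4ET-IP over IgG-IP, from S100a6 at 1.74 to Pcp4 at -0.58; all 18 points lie left of 0.

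The direct comparison of the precipitates was not the contrast the genes were chosen on, but it uses the same precipitate arrays, so it is not independent of the choice. Of the 9 genes, 4 were called higher in 4ET-IP than in IgG-IP (7.57% of all genes were) and 0 were called lower (2.92%), with 1, Pcp4, lower at an unadjusted limma p under 0.05. These were S100a6 at 1.74 ± 0.31, Coa3 at 1.17 ± 0.17, Myl6 at 1.02 ± 0.27 and Hscb at 0.73 ± 0.20, with adjusted p of 0.00495, 0.00161, 0.0294 and 0.0405 from limma. On the linear scale S100a6 was 3.34-fold and Coa3 2.25-fold higher in 4ET-IP. Among the 8 arrays outside the pair, every 4ET-IP array was above every IgG-IP array for these 4 and for Tufm, as for 23% of all genes.

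The calls of Myl6 and Hscb were fragile. Myl6 lost its call without any 1 of 4ET-IP 1, 2 or 3, IgG-IP 3 or 4, or input 1 (adjusted p from 0.0744 to 0.094). Hscb lost its call without any 1 of 4ET-IP 1, 2 or 3, IgG-IP 2 or 4, or input 1 or 2 (0.0629 to 0.134). S100a6 and Coa3 stayed called whichever array was left out. In the fit without the term for the pair Coa3 alone was called, at 1.25 ± 0.23 with an adjusted p of 0.0185 from limma, and S100a6 was at 1.27 ± 0.50 with 0.291.

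The other 5 genes were not called between the precipitates. Tufm was at 0.74 ± 0.23 (limma adjusted p = 0.0684), and at 1.04 ± 0.16 and called (0.00267) without IgG-IP 2. Crip1 was at 0.70 ± 0.34 (0.241), Lgals1 at -0.086 ± 0.37 (0.929), Mpc1 at -0.15 ± 0.34 (0.856) and Pcp4 at -0.58 ± 0.25 (0.187). The 2 values near 0 changed sign with some arrays left out: Lgals1 was at 0.38 without IgG-IP 3 and Mpc1 at 0.42 without 4ET-IP 2.

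**Figure D3:**
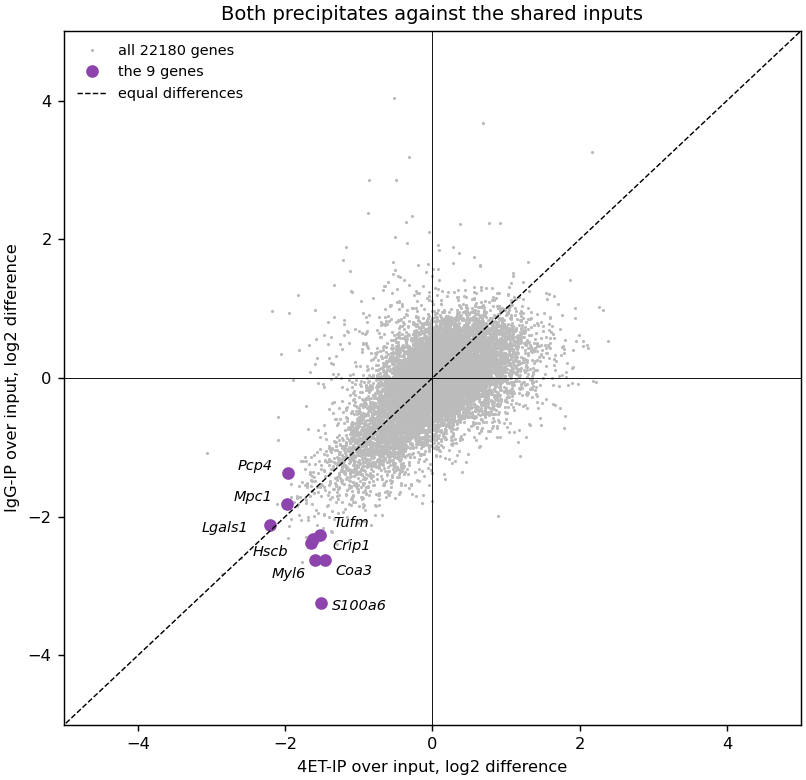
Log2 difference from input in 4ET-IP (x axis) and in IgG-IP (y axis) for all 22180 genes (grey) and the 9 genes (purple), with a dashed line at equal differences. The 9 genes lie at the lower left end; S100a6, Coa3 and Myl6 are below the line and Pcp4 is above it. Both axes share the input arrays, so the slope of the cloud is not a result.

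Tufm and Mpc1 are each measured by 2 probe sets that disagreed, and the brighter of each was the one chosen. The brighter Tufm probe set had 7.13, 6.79 and 6.86 in 4ET-IP, against 6.70, 5.63 and 5.95 in IgG-IP and 8.63, 8.42, 8.29 and 8.36 in input. It differed from input by -1.52 ± 0.21 in 4ET-IP and by -2.26 ± 0.21 in IgG-IP. The dimmer Tufm probe set had 6.13, 6.02 and 5.82 in 4ET-IP, against 6.17, 6.46 and 6.69 in IgG-IP and 5.53, 6.62, 6.003 and 6.17 in input. There the precipitates overlapped the inputs, and the differences from input were -0.062 ± 0.22 in 4ET-IP and 0.29 ± 0.22 in IgG-IP (adjusted p over all single-symbol probe sets 0.913 and 0.458, limma).

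The brighter Mpc1 probe set had 6.94, 6.47 and 7.76 in 4ET-IP, against 7.84, 6.98 and 7.50 in IgG-IP and 8.20, 9.22, 9.32 and 9.59 in input. It differed from input by -1.97 ± 0.31 in 4ET-IP and by -1.82 ± 0.32 in IgG-IP. The dimmer Mpc1 probe set had 3.90, 4.68 and 5.12 in 4ET-IP, against 5.44, 5.32 and 5.30 in IgG-IP and 4.27, 5.14, 5.61 and 5.99 in input. Its differences were -0.59 ± 0.20 in 4ET-IP and -0.19 ± 0.20 in IgG-IP, neither of them called (0.0548 and 0.604, limma). With both probe sets averaged, the differences from input in 4ET-IP and IgG-IP were -0.79 and -0.99 for Tufm, and -1.28 and -1.01 for Mpc1.

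By their numbers on the array, the brighter probe sets of Tufm and Mpc1 lay among those of other chromosomes. For each of the other 7 genes, all 10 nearest annotated probe sets by number belonged to genes on the gene's own chromosome. The brighter Tufm probe set lay among 10 of 10 from chromosome 8, while RefSeq places Tufm on chromosome 7. The brighter Mpc1 probe set lay among 9 of 9 from chromosome 12, while the gene is on chromosome 17. The dimmer probe sets of both lay on the gene's own chromosome. Whether the brighter probe sets read a copy of these genes elsewhere was not tested, and the values of Tufm and Mpc1 are uncertain for that reason. Without them, the medians of the remaining 7 genes were -1.62 in 4ET-IP and -2.38 in IgG-IP. All 7 were called lower in both precipitates, and nothing is read from this, because they were chosen on these differences.

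**Figure D4:**
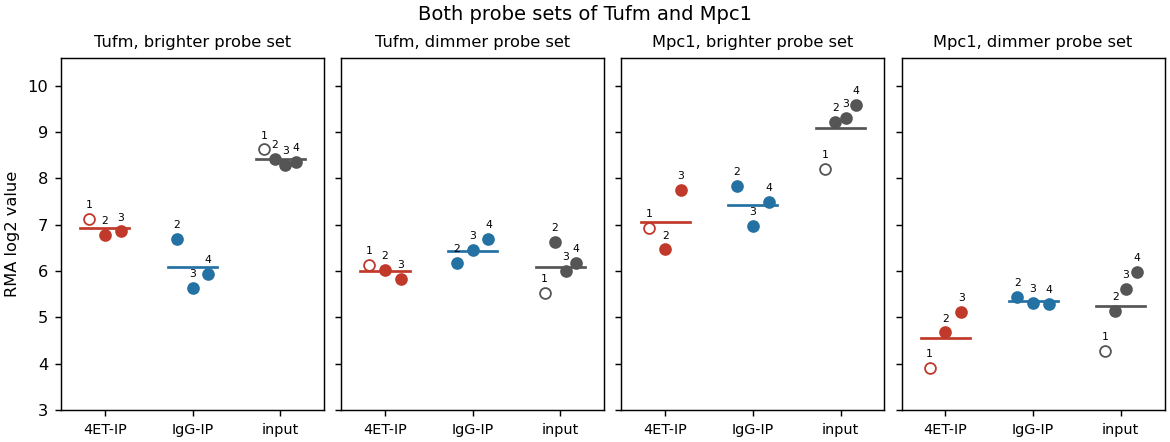
RMA log2 values (y axis) of the brighter and the dimmer probe set of Tufm and of Mpc1 on the 4ET-IP, IgG-IP and input arrays, with group means as lines and open points for the lower-scale pair. The precipitates lie below input in the brighter probe sets and overlap input in the dimmer ones.

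The genes were grouped as abundant and short. Their mean input signal lay between the 73.9th percentile of all genes for S100a6 and the 99.2nd for Pcp4, and 8 of the 9 were above the 75th percentile. Probe sets differ in how they respond, so this ranks signals and not transcripts. Transcript length was not analysed here. The genomic span in RefSeq (GRCm38.p6) was at most 5000 bases for 6 of the 9, from 979 bases for Coa3 to 3741 for Lgals1. It was 10724 bases for Hscb, 13881 for Mpc1 and 58188 for Pcp4, so a short gene is not common to all.

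Bright coding genes with a short span were often low in both precipitates. Of the 622 coding genes above the 75th percentile of input signal with a span of at most 5000 bases, 52.9% were called lower in 4ET-IP than in input and 64.1% in IgG-IP. Of the 4725 coding genes above the same percentile with a longer span these shares were 21% and 25.1%, and of the 3281 dimmer genes with a short span 2.62% and 4.11%. With the level taken over all 10 arrays, the shares of the bright short genes were 50.9% and 59.6%. The median differences of the bright short genes were -0.51 in 4ET-IP and -0.76 in IgG-IP. The limit of 5000 bases was set after the data had been seen, and 5 of the 9 genes are among the 622.

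The start of the transcripts is shown for 4 genes, because 4E-T acts through the cap-binding protein. S100a6, Coa3 and Myl6 were called higher in 4ET-IP than in IgG-IP, and Pcp4 was at the other end. Hscb, also called higher, had no entry. Myl6 has another annotated start, at chr10:128493009, which is not shown. Each line gives 10 bases before the annotated start and 20 from it on, read on the strand of the gene from RefSeq (GRCm38.p6), with the first 5 transcribed bases in capitals.
S100a6, chr3:90612884-90612913, plus strand: agcacacaagCCAGAgtttcgagtcacgtg
Coa3, chr11:101278929-101278958, minus strand: cgggcttgacGGCTTagggcggagcagcaa
Myl6, chr10:128493867-128493896, minus strand: gccatgggacGTACTaaggctggggttggg
Pcp4, chr16:96467596-96467625, plus strand: gtggctctttGCGCTctcggatgtctgcag
Messages of the translation machinery often begin with a C followed by a run of C or T. A start with C and then 4 bases that are each C or T was looked for on the gene's strand alone. It was found at 0 of 9 annotated starts of the 7 genes with an entry, and at 2.51% of all 32851 entries. With so small a share over all entries, the count among 9 starts does not set these genes apart. RefSeq starts may be off by some bases, and no match says only that these letters are not at the annotated position.

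The other genes of the same families were not chosen on these differences, whereas the 9 were, so the low place of the 9 in each list follows from the choice and is not a result. Across S100 proteins, galectins, myosin light chains, cysteine-rich LIM proteins and small calmodulin-binding proteins, 43 other genes were measured. Of these, 7 were called lower and 1 higher in 4ET-IP than in input, and 11 were lower and 1 higher in IgG-IP. The gene higher in IgG-IP was S100pbp, at 0.61 ± 0.15, which was in the S100 list but is not itself an S100 protein. Over all genes 8.86% were called lower and 10.4% higher in 4ET-IP, and 10.5% lower and 6.14% higher in IgG-IP. S100a10, which partners annexin A2, differed by -1.44 ± 0.25 in 4ET-IP and by -1.84 ± 0.26 in IgG-IP. S100a14 was at the upper end, at 0.46 ± 0.13 in 4ET-IP and 0.36 ± 0.14 in IgG-IP. The 8 galectins other than Lgals1 ran from -0.37 ± 0.12 for Lgals7 to 0.18 ± 0.15 for Lgals8 in 4ET-IP, and 0 of them were called by limma in IgG-IP (1 at an unadjusted p under 0.05).

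Of 11 other myosin light chains, 2 were called lower in 4ET-IP and 5 in IgG-IP, with medians of -0.19 and -0.55. Of 5 other LIM proteins, 2 were called lower in 4ET-IP and 3 in IgG-IP, with medians of 0.087 and -0.69. Over bright coding genes, 21% with long spans and 52.9% with short ones were called lower in 4ET-IP, and 25.1% and 64.1% in IgG-IP. Over dimmer coding genes these shares were 3.05% and 2.62% in 4ET-IP, and 4.39% and 4.11% in IgG-IP. The lists are small, mix bright and dim genes and were not matched for level or span. Nothing particular to these families is therefore read from the counts. Myl12a, a regulatory light chain of non-muscle myosin, differed by -0.96 ± 0.15 in 4ET-IP and -1.06 ± 0.16 in IgG-IP, and Myl7, an atrial light chain, was at 0.23 ± 0.21 and -0.55 ± 0.22. Csrp2, a LIM protein of muscle and mesenchyme, differed by -0.93 ± 0.22 in 4ET-IP and -1.33 ± 0.23 in IgG-IP, and Crip3 was at 0.30 ± 0.19 and 0.06 ± 0.20. Csrp1 was the one of these 43 other genes called between the precipitates, at 0.96 ± 0.14 in 4ET-IP over IgG-IP (limma adjusted p = 0.00148). In the calmodulin-binding list neither Gap43 (-0.61 ± 0.22 in 4ET-IP and -0.43 ± 0.22 in IgG-IP) nor Pcp4l1 (0.52 ± 0.22 and -0.09 ± 0.23) was called.

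Of 50 other genes in cytochrome c oxidase assembly, mitochondrial translation, iron-sulfur cluster assembly and pyruvate oxidation, 20 were called lower and 6 higher in 4ET-IP than in input. In IgG-IP 25 were lower and 0 higher by limma (3 were higher at an unadjusted p under 0.05). The shares called lower over all genes were 8.86% in 4ET-IP and 10.5% in IgG-IP. Over bright coding genes they were 21% and 25.1% for long spans and 52.9% and 64.1% for short ones. Over dimmer coding genes they were 3.05% and 4.39% for long spans and 2.62% and 4.11% for short ones. These lists also hold dimmer genes and were not matched for level or span, so nothing particular to them is read from the counts. For cytochrome c oxidase assembly the counts were 10 of 18 lower in 4ET-IP and 11 of 18 in IgG-IP, with list medians of -0.53 and -0.70. Coa6 differed by -0.91 ± 0.15 in 4ET-IP and -1.15 ± 0.15 in IgG-IP. Cox10, the enzyme that makes heme O, went opposite ways, at 0.66 ± 0.15 in 4ET-IP and -0.75 ± 0.16 in IgG-IP.

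Iron-sulfur cluster genes were lower in 5 of 11 in 4ET-IP and in 6 of 11 in IgG-IP. Glrx5, a monothiol glutaredoxin, came closest to Hscb, at -1.46 ± 0.21 in 4ET-IP and -1.42 ± 0.21 in IgG-IP. Isca1 was at 0.66 ± 0.14 and -0.43 ± 0.15. Of the pyruvate genes, 3 of 12 were lower in 4ET-IP and 4 of 12 in IgG-IP. The kinase gene Pdk3 was at -0.69 ± 0.14 and -0.61 ± 0.15. Pdp1, a phosphatase that activates pyruvate dehydrogenase, was at 1.26 ± 0.15 in 4ET-IP and 0.27 ± 0.15 in IgG-IP. Of 9 other mitochondrial translation factors, 2 were lower in 4ET-IP and 4 in IgG-IP. Mtrf1l, a release factor, was at -0.60 ± 0.13 and -0.45 ± 0.14, and Mtif3, an initiation factor, at 0.42 ± 0.13 and -0.40 ± 0.14.

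Between the precipitates, 8 of the 50 mitochondrial genes were called higher in 4ET-IP than in IgG-IP and 1 lower, against 7.57% and 2.92% of all genes. Of the coding genes above the 75th percentile of input signal, 16.2% of those with long spans and 23% of those with short spans were called higher. In the oxidase list the higher ones included Cox10 at 1.41 ± 0.17, Cmc2 at 0.76 ± 0.17 and Coa4 at 0.65 ± 0.19 (limma adjusted p = 0.000575, 0.0141 and 0.0492). Isca1 was at 1.09 ± 0.16 (0.00185), Pdp1 at 0.99 ± 0.17 (0.00396), Pdk2 at 0.64 ± 0.17 (0.0284) and Mtif3 at 0.82 ± 0.15 (0.00599). Guf1, a mitochondrial elongation factor 4 gene, was the lower one, at -0.91 ± 0.14 (0.00203).

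**Figure D5:**
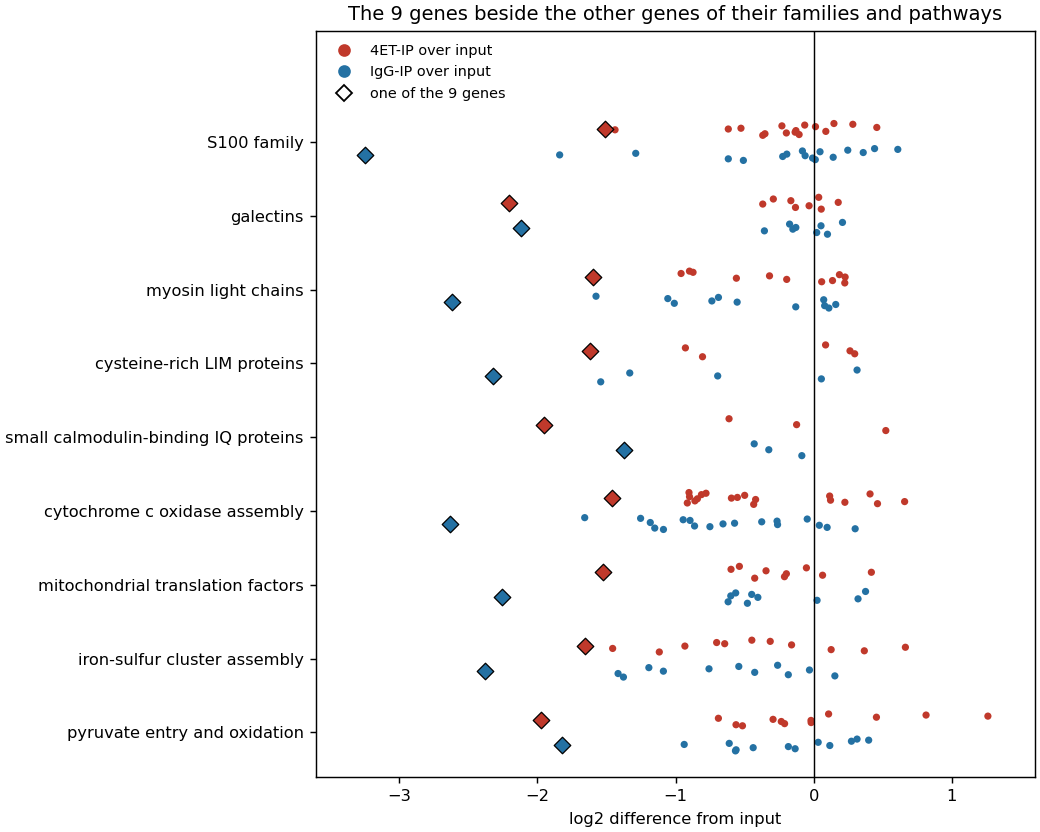
Log2 difference from input (x axis) of the 9 genes (diamonds) and of the other measured genes of their 9 family or pathway lists (circles), in 4ET-IP (red) and IgG-IP (blue). The diamonds were chosen on these differences, so their low place is not a result; the lowest circles in 4ET-IP are Glrx5 and S100a10, at -1.46 and -1.44.

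S100a6, Lgals1 and Crip1 are known from meningeal, vascular and immune cells as well, so markers of these were read on the same arrays. Precipitate and input are RNA fractions of cortex, so a marker difference between them does not count cells of a type. Of 12 meningeal and mesenchymal markers, 0 were called lower by limma in 4ET-IP (1 at an unadjusted p under 0.05) and 1 in IgG-IP, while 1 was higher in 4ET-IP, Foxc1 at 1.36 ± 0.13. Dcn was the marker lower in IgG-IP, at -1.09 ± 0.22. Outside the lower-scale pair the mean level of this list was 4.88 and 4.99 in 4ET-IP, 4.56 to 4.93 in IgG-IP and 4.32 to 4.89 in input. Of 10 endothelial markers, 1 was lower in 4ET-IP and 5 in IgG-IP, while 1 was higher in 4ET-IP, Kdr at 1.37 ± 0.19. Emcn was lower in both, at -0.69 ± 0.16 in 4ET-IP and -1.46 ± 0.16 in IgG-IP. Cdh5, Cldn5, Pecam1 and Eng were called lower in IgG-IP alone. The list had mean levels of 4.95 and 5.15 in 4ET-IP, 4.43 to 4.69 in IgG-IP and 4.96 to 5.03 in input. Of 10 microglia and macrophage markers, 4 were lower in 4ET-IP and 1 in IgG-IP, while Cx3cr1 was higher in both, at 1.21 ± 0.16 in 4ET-IP and 0.71 ± 0.16 in IgG-IP. Tyrobp was lower in both, at -1.63 ± 0.22 in 4ET-IP and -1.36 ± 0.23 in IgG-IP. Cd68, C1qb and Fcer1g were called lower in 4ET-IP alone, at -0.95 ± 0.18, -0.70 ± 0.16 and -0.66 ± 0.20. The list had means of 4.58 and 4.72 in 4ET-IP, 4.73 to 4.99 in IgG-IP and 4.98 to 5.12 in input. Of 4 erythroid markers 0 were called by limma in either (at an unadjusted p under 0.05, 0 in 4ET-IP and 2 in IgG-IP, both lower), with means of 6.98 and 7.06 in 4ET-IP, 6.22 to 7.24 in IgG-IP and 6.73 to 7.52 in input. Some markers had low input means, such as 3.44 for Ogn and 2.75 for Ptprc, so whether they were above background is unknown. The part of these cells in the 9 genes was not tested. All markers of these lists that were called against input are named, and they were named after their values were seen.

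The profile of the 9 genes was described by their mean over the 8 arrays outside the pair, each gene first centred on its own mean. The genes were chosen for the step from input to precipitate that this profile holds. Among 5480 named coding genes at least as bright in input as S100a6, those most like the mean profile were Psmd9, Usp50, Bmyc, Nedd8 and Cox7a2l, with r from 0.9956 to 0.9986. The r values describe the shape over the same 8 arrays, which share groups and normalization. The losses of the 5 ran from -0.64 ± 0.12 for Nedd8, a ubiquitin-like modifier, to -1.72 ± 0.17 for Usp50 in 4ET-IP. In IgG-IP they ran from -0.87 ± 0.13 for Nedd8 to -2.29 ± 0.18 for Usp50.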

How the data were processed

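Per the submitters' processing notes, the authors used RMA and Affymetrix Expression Console, and the deposited values are on the log2 scale. The labels' protocols name the Magna RIP kit, NuGEN Pico amplification and WT Terminal Labeling. Tool versions and the genome build are not given in the sources used here. Platform annotation gave 1 symbol for 23521 of 41345 probe sets, and each gene was read from its brightest probe set (mean of all 10 arrays). Dim genes stayed in the fit. Precision is limited by how few arrays there are.

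limma 3.58.1 (R 4.3.3) was fitted with terms for group and for the lower-scale pair (array median under 4). The fit was also run on simulated data with known changes, where noise was independent between arrays. The outcome is not given here, and nothing is read from it. Equal replicate numbers met the pairing criterion (over 0.1) for 4ET-IP and input, with correlations of deviations of 0.623, 0.24 and 0.277, though 0.0442 and 0.00845 outside the pair. For IgG-IP and input numbers 2, 3 and 4 they were -0.023, 0.0798 and 0.318, and 0.137, 0.0909 and 0.247 outside the pair. A replicate block was therefore tried.

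Genes, lists and the term were chosen with earlier results of these data known. All 9 genes are named. From each list the lowest and highest gene in 4ET-IP over input and up to 3 genes called between precipitates are named, and the 5 genes most like the mean profile. S100pbp is named besides, because it is not an S100 protein. Protein lengths were planned for the length split and genomic spans were used. Figures were drawn with matplotlib 3.10.9.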

Additional observations from a re-analysis of the deposited data

How the results depend on the processing

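The loss of the 9 genes against input kept its direction under each of the 18 alternatives, and 323 of 324 single calls stayed. The genes were chosen on these differences, so the kept calls are no independent evidence of a loss. No alternative read Tufm or Mpc1 from the dimmer probe set alone, where Tufm was at 0.29 in IgG-IP over input. The number different between the precipitates, 4 in the report, was 1 with group alone, 2 in the 8 arrays and 2 with median centring, 5 with quantile normalization, without the dim genes and with robust eBayes, and 2 to 4 with 1 array left out. With the replicate block it stayed 4, with the same genes called, and no call of the 9 genes changed; the numbers of genes called were 4510, 4120 and 2454. The genes called in 4ET-IP over input, IgG-IP over input and 4ET-IP over IgG-IP, 4274, 3688 and 2326 in the report, were 1361, 1206 and 299 with group alone. With 1 array left out they were 2703 to 4679, 2612 to 3471 and 930 to 2268, the lowest for 4ET-IP over IgG-IP without 4ET-IP 2 and 935 without 4ET-IP 3. Lgals1 in 4ET-IP over IgG-IP was at 0.082 with quantile normalization of all arrays, 0.20 without 4ET-IP 3 and 0.38 without IgG-IP 3, and ran down to -0.49 without IgG-IP 4. Mpc1 was at 0.42 without 4ET-IP 2 and 0.049 without IgG-IP 2, and ran down to -0.48 without 4ET-IP 3. Tufm was the added gene in those 3 settings (1.02, 0.74 and 0.74). The cause of these changes was not tested. The bright short genes called lower with group alone were 185 in 4ET-IP and 234 in IgG-IP, against 329 and 399. No deposited detection calls were used, so signal over background is unknown.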
